A study of Mus musculus with 16 samples.

Results

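Hox genes encode homeodomain transcription factors that give cells along the head-to-tail axis of the embryo their regional identity, and mature fibroblasts and mural cells keep much of the code of the place they came from. Mice carry 4 clusters, HoxA to HoxD, that arose by duplication, so genes with the same number in different clusters (paralogs) are close relatives. Within a cluster the order of the genes follows their use: low numbers at the 3′ end act early and toward the head, and high numbers at the 5′ end act late and toward the tail. The members described here were all protein-coding genes whose symbol is Hox, a cluster letter and a number, which gave 39 of the 46078 genes in the deposited table: 11 in HoxA (chr6:52155590-52260880), 10 in HoxB (chr11:96194316-96368256), 9 in HoxC (chr15:102921103-103036852) and 9 in HoxD (chr2:74668310-74765142; build GRCm38, outermost gene ends).

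The cells were, per the labels, mouse juxtaglomerular cells, engineered to express yellow fluorescent protein under the renin promoter and grown as a monolayer, of the same genotype in all groups. They were transfected with a miR-106b precursor or, as control, with a precursor of a miRNA that mammals lack, and RNA was taken 48 h later. The 16 libraries form 4 groups of 4: polyA RNA after control transfection, polyA RNA after miR-106b transfection, Ago2-IP RNA after control transfection and Ago2-IP RNA after miR-106b transfection. Ago2-IP RNA is the RNA that came down with Argonaute 2, the protein that carries miRNAs to their targets; it came from other cultures than the polyA RNA, and the replicates are separate cultures per the design text.

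Renin-producing cells of the kidney descend from a stromal progenitor marked by Foxd1, and the trunk region in which the kidney forms uses Hox genes of middle and high number. Paralogs 10 and 11 have known parts in kidney formation: the 11 group is needed for the first outgrowth of the kidney, and the 10 group for its stroma. Anterior Hox genes, in contrast, mark progenitors of the outflow tract and atria of the heart.

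Ren1, the marker that defines the labeled cell type, had 0 counts in each of the 16 libraries, which at 3 counts allows up to 0.317 to 1.16 CPM (counts scaled to library size), depending on depth. Cardiac muscle markers were abundant in all libraries (25 genes, Mb the most abundant per kilobase of exon), with a summed level of 28070.4, 21775, 23623 and 30981 CPM in the polyA control libraries and 48222, 83274, 55824 and 80906 CPM in the polyA miR-106b libraries. In the Ago2-IP control libraries the same sum was 129844, 132623, 127419.6 and 122534 CPM, and in the Ago2-IP miR-106b libraries 119952, 116954, 126235 and 132237 CPM. The cardiac sum and the Hox sum lay at opposite ends across the RNA kinds, which each Hox result below has to be read with. The source of the cardiac RNA was not tested, and whether the cells are the labeled type cannot be told from these values.

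Within its group library polyA miR-106b 1 had the highest HoxC sum (317 CPM against 130.0 to 197 CPM in the other 3), and the highest Foxd1 (122 against 19.99 to 74.0 CPM). The screen for a library far from the others, given in the closing section, did not flag this HoxC sum. Ago2-IP libraries also differed among themselves, with Hox counts of 112, 100, 259 and 557 in the control libraries and 207, 464, 220 and 111 in the miR-106b libraries, out of 2579086 to 4616424 counts in all. For most Hox genes an Ago2-IP value therefore rests on a handful of counts.

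In the polyA control libraries a trunk code was seen: the Hox genes of middle and high number carried most of the Hox RNA, and HoxB carried more than the other clusters. Summed over all 39 genes, Hox RNA was 1068, 1082, 1095 and 1108 CPM in the polyA control libraries. Per kilobase of exon, which allows genes of different length to be compared, the sum was 430.1 ± 5.83 CPM per kb (SD, n = 4). Of this, HoxB held 52.7%, HoxA 23.4%, HoxC 21.1% and HoxD 2.85%. By number, paralogs 1 to 4 held 11.9%, paralogs 5 to 8 held 51.5% and paralogs 9 to 13 held 36.6%, with paralog groups 9 (28.1%) and 6 (25.4%) the largest of the 13.

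**Figure D1:**
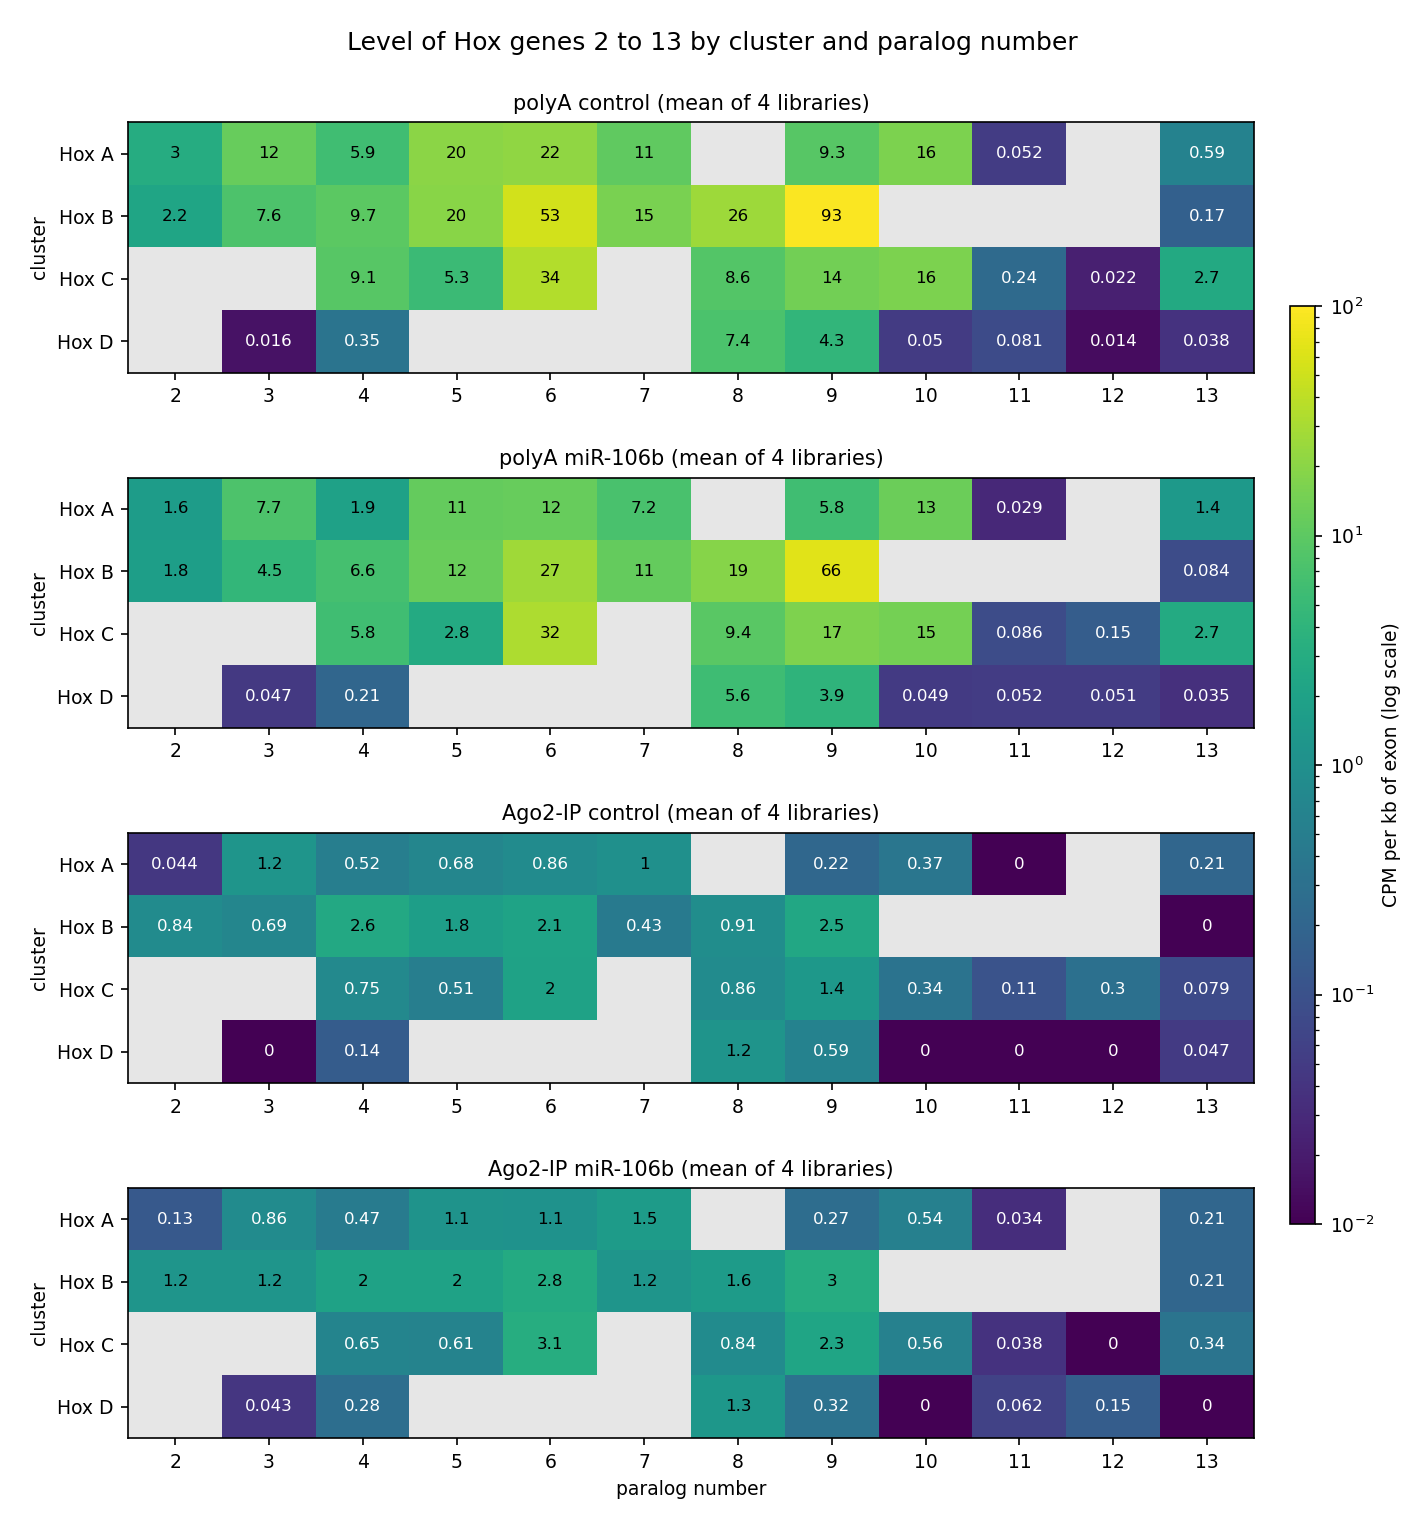
Mean level of the Hox genes of paralogs 2 to 13 (CPM per kb of exon, colour on a log scale) by cluster (vertical) and paralog number (horizontal) in the 4 groups of 4 libraries; grey marks positions with no mouse gene. Hoxb9 is the highest in polyA control RNA (93.1 CPM per kb), and Hoxb4 the highest in Ago2-IP control RNA (2.57 CPM per kb).

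The highest Hox level per kilobase in polyA control RNA belonged to Hoxb9 (ENSMUSG00000020875, chr11:96271457-96276595), with 93.1 ± 3.53 CPM per kb (SD, n = 4). Hoxb6 (ENSMUSG00000000690, chr11:96292476-96301569) came next at 52.8 ± 3.55, then Hoxc6 at 34.3 ± 2.53, Hoxb8 at 25.7 ± 1.41, Hoxa6 at 22 ± 0.778 and Hoxa5 at 19.8 ± 0.752 CPM per kb (each SD, n = 4). The Hox11 group was near 0 in every library: Hoxa11 did not exceed 0.310 CPM, Hoxc11 0.697 CPM and Hoxd11 0.837 CPM. Of the 39 genes, 27 (69.2%) passed the filter on low counts and were tested; the other 12 had 4 to 58 counts in total over the 16 libraries. The libraries carry no strand, and 16 of the 39 Hox genes share exon bases with another gene, among them Hoxd3 (62.8% of its exon bases), Hoxb3 (52.9%, with the antisense gene Hoxb3os), Hoxd4 (52.3%) and Hoxa11 (35.0%), so part of their counts is uncertain. The intervals and floors in this text cover counting error only.

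MicroRNAs lower the level of mRNAs they pair with, mostly by a modest amount, and they can change further genes through the factors among their targets. Hox RNA levels in a cultured cell also follow how many cells of each origin are present and how each grows. Polyadenylated RNA shows the outcome of all of these together. For a positional code the question is whether a shift touches whole clusters or numbers, or single genes.

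In the polyA fraction the mean Hox sum was lower after miR-106b in all 4 clusters, and the highest HoxC sum was in library polyA miR-106b 1. The summed level was 1064, 547, 859 and 649.7 CPM in the miR-106b libraries, a mean of 779.9 ± 229.7 CPM against 1088 ± 17 CPM in control (SD, n = 4 each), or 71.7%. The miR-106b libraries spread widely, and the highest of them, miR-106b 1, lay only just below the lowest control, so the groups stood apart by a small margin. In edgeR (quasi-likelihood F test, two-sided, Benjamini-Hochberg over 14897 genes), 16 of the 27 tested Hox genes were lower and 0 higher at an adjusted p under 0.05, where 21.5% of all genes tested were lower, 19.0% higher and 40.5% either. For 9 Hox genes all miR-106b libraries lay below all control libraries, against 14.8% of all genes (21.8% for the opposite order). Of the 27, 24 had a log2 fold change below 0, and the median was -0.68 against -0.05 over all genes tested. Fewer cells of a type and less RNA per cell cannot be told apart in such data.

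The call count depended on which libraries were in the fit. It was 9 without polyA control 1, without polyA control 2 or without polyA control 3, 10 without polyA miR-106b 4, and 20 without polyA miR-106b 1. Without polyA miR-106b 2, 10 Hox genes were lower and 1 higher, where 2648 of all genes were lower. Without polyA miR-106b 3, 16 were lower and 1 higher, where 3294 of all genes were lower. The gene called higher was Hoxa13 in both fits. With all 16 libraries in 1 fit the count of Hox genes called was 7. The calls of all genes moved in the same fits: 3198 genes were lower with all 8 libraries, 1834, 1640 and 1707 without polyA control 1, 2 and 3, 2598 without polyA miR-106b 4 and 3208 without polyA miR-106b 1. In the fit of all 16 libraries 2408 genes were lower and 3829 higher, where 2836 were higher with 8. Direction held better than the calls: 23 of the 27 Hox genes were below 0 in the fit of all 16 libraries and 24 in the DESeq2 Wald test. Where a fit without a library is named below, the value in brackets is the adjusted p of the same edgeR test, after its log2 fold change where that is given. Hoxa3, Hoxa4, Hoxa5, Hoxa7, Hoxa9, Hoxb3, Hoxb6 and Hoxc4 were called with any 1 of the 8 libraries left out. Of these, Hoxa7 (0.272), Hoxa9 (0.0783), Hoxb6 (0.0566) and Hoxc4 (0.188) lost the call in the fit of all 16 libraries, as did Hoxa2 (0.0541), Hoxb5 (0.258), Hoxb7 (0.239), Hoxb8 (0.298) and Hoxc5 (0.130). Hoxb4 and Hoxb7 also lost it in the DESeq2 Wald test (adjusted p 0.0726 and 0.0618), and Hoxb5 with scaling by library size only (0.0522 in edgeR). With DESeq2 size factors Hoxb4 (0.0727), Hoxb5 (0.0595) and Hoxb7 (0.0636) were not called in edgeR.

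**Figure D2:**
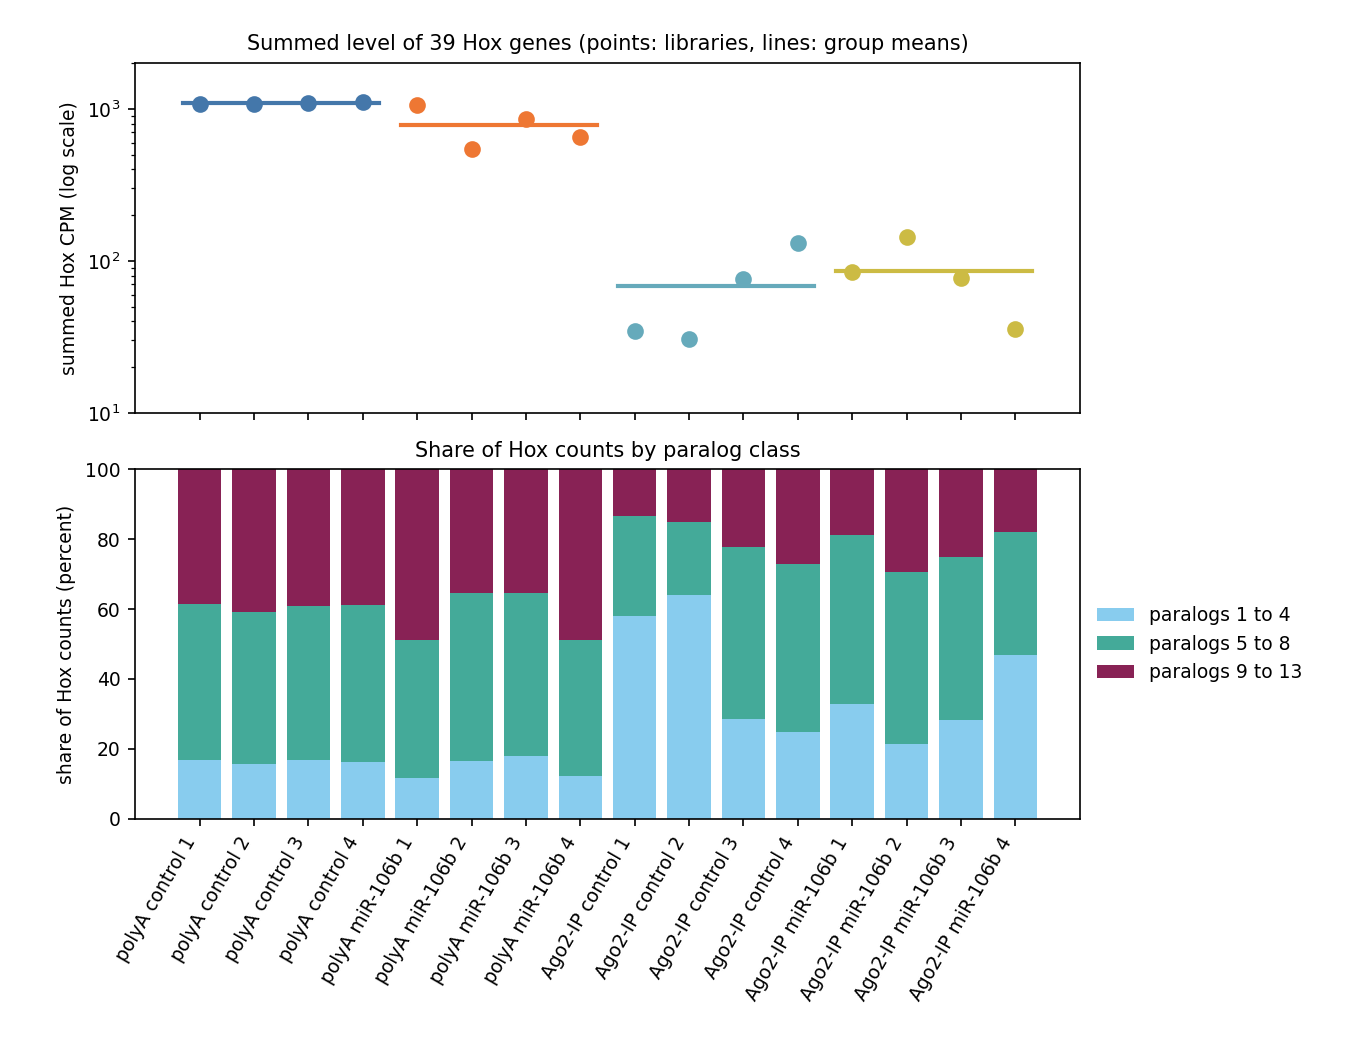
Top, summed Hox level in each of the 16 libraries (CPM, log axis; points are libraries, lines group means); bottom, the share of Hox counts (%) from paralogs 1 to 4, 5 to 8 and 9 to 13 in each library. The polyA control libraries lie between 1068 and 1108 CPM, the polyA miR-106b libraries between 547 and 1064 CPM.

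By cluster, the HoxA sum was 274, 284, 279 and 292 CPM in control and 237, 147, 207 and 139.9 CPM after miR-106b. For HoxB the sums were 543, 558, 564 and 558 CPM and 468, 257, 433 and 311 CPM. In both clusters all 4 miR-106b libraries lay below all 4 control libraries, and the means were 64.7% and 66.1% of control. HoxC gave 215, 209, 218 and 236 CPM and 317, 130.0, 197 and 174 CPM. HoxD, the least abundant cluster, gave 36.7, 31.4, 33.8 and 22.6 CPM and 42, 13, 22.4 and 24.7 CPM. These groups overlapped, HoxC because of miR-106b 1, and the means were 93.3% and 82.0% of control. By cluster the calls were 8 of 10 in HoxA (median log2 fold change -0.86), 6 of 8 in HoxB (-0.65), 2 of 7 in HoxC (-0.20) and 0 of 2 in HoxD (-0.36). All calls were lower, where 21.5% of all genes tested were lower and 19.0% higher. Without polyA miR-106b 1 the calls were 9 of 10, 5 of 8, 4 of 7 and 2 of 2, where 3208 of 14897 genes tested were lower. In that fit the HoxA, HoxC and HoxD sums were 58.3, 76.2 and 64.3% of control. Without polyA miR-106b 2 the HoxC sum was 105% of control. HoxC made up 20.1, 19.3, 19.9 and 21.3% of Hox counts in the control and 29.8, 23.8, 22.9 and 26.7% in the miR-106b libraries, more in each of the 4 than in any control. HoxB calls were 2 without polyA control 1, 2 or 3 or polyA miR-106b 2 or 4, and 3 without polyA control 4. HoxA calls were 5 without polyA control 2, and HoxC calls 1 without polyA control 1 or 3. A difference between clusters was not tested.

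By number, 7 of 8 genes of paralogs 1 to 4 (median -0.82), 8 of 11 of paralogs 5 to 8 (-0.68) and 1 of 8 of paralogs 9 to 13 (-0.25) were called. All were lower, where 21.5% of all genes tested were lower and 19.0% higher. Summed levels were 62.4, 69.7 and 77.7% of control for the 3 classes. The spread between the Hox classes was narrower without polyA miR-106b 1: the calls were 6 of 8, 9 of 11 and 5 of 8 (medians -0.87, -0.72 and -0.63) and the sums 60.2, 63.6 and 63.3% of control. In that fit 3208 of 14897 genes tested were lower. Calls of paralogs 1 to 4 were 4 without polyA control 1, 2 or 3 or polyA miR-106b 2 or 4, and calls of paralogs 5 to 8 were 4 without polyA control 1, 2 or 3 and 5 without polyA miR-106b 2 or 4. A difference between the classes was not tested. The 16 genes that share no exon base with another gene and were tested had a median of -0.53, with 7 called.

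Among the 3′ genes, Hoxa2 sets the identity of the hindbrain and pharyngeal arches, Hoxa3 the thymus and parathyroid, and the 4 group the neck vertebrae. Hoxa2 (ENSMUSG00000014704, chr6:52162511-52164831) had 5.58, 5.54, 5.72 and 4.45 CPM in the control and 3.26, 1.30, 4.48 and 2.47 CPM in the miR-106b libraries of polyA RNA. Hoxa3 (ENSMUSG00000079560, chr6:52169062-52213336) had 64.7, 68.2, 73.6 and 80.6 CPM and 59.6, 36.6, 54.5 and 33.8 CPM. All miR-106b libraries lay below all control libraries for Hoxa3, while for Hoxa2 miR-106b 3 reached the lowest control. Hoxa4 (ENSMUSG00000000942, chr6:52189671-52191753) had 11.9, 8.31, 11 and 6.29 CPM and 1.96, 2.34, 7.37 and 0.705 CPM. Hoxb3 (ENSMUSG00000048763, chr11:96323326-96347930) had 34.2, 30.9, 33.5 and 31.2 CPM and 24.4, 13.2, 25.3 and 13 CPM. Hoxa4 was low in miR-106b 1, 2 and 4 and inside the control range in miR-106b 3, and Hoxb3 was below control in all 4.

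The fall of Hoxa4 was the largest among the tested Hox genes with all 8 libraries (log2 fold change -1.68, SE 0.43, adjusted p = 0.00823 in edgeR, Benjamini-Hochberg), and without polyA miR-106b 3 it was -2.53. Hoxa2 fell (-1.0, SE 0.31, adjusted p = 0.0207 in edgeR), but its call was lost without polyA control 1, 2 or 3 or without polyA miR-106b 2 or 4 (adjusted p 0.0517 to 0.0804 in edgeR). Hoxa3 fell (-0.75, SE 0.17, adjusted p = 0.00386 in edgeR), and so did Hoxb3 (-0.88, SE 0.20, adjusted p = 0.00405). Hoxc4 also fell (-0.75, SE 0.17, adjusted p = 0.00397 in edgeR). Hoxb4 fell (-0.68, SE 0.24, adjusted p = 0.0387 in edgeR) with a call that did not hold: it was lost without any 1 of polyA control 1 to 4 and polyA miR-106b 1, 2 and 4 (0.0565 to 0.163). Hoxb2 had 7.81, 7.85, 8.51 and 7.21 CPM in control and 5.87, 3.89, 10.8 and 4.23 CPM after miR-106b. Its highest and lowest values were both in the miR-106b group, and it was not called (-0.45, SE 0.28, adjusted p = 0.222 in edgeR; 0.0102 without polyA miR-106b 3).

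The 5 to 8 group works in the neck and chest: Hoxa5 in the lung and airway, Hoxb5 in endothelial and gut nerve precursors, Hoxc6 in forelimb motor neurons, and Hoxb8 in blood progenitors. Hoxa5 (ENSMUSG00000038253, chr6:52201754-52204587) had 36.7, 36.1, 36.9 and 39.3 CPM in the control and 23.9, 23.9, 21.3 and 14.8 CPM in the miR-106b libraries of polyA RNA. Hoxb5 (ENSMUSG00000038700, chr11:96303336-96306121) had 50.6, 55.7, 52.2 and 61.2 CPM and 25, 30.9, 60.05 and 19 CPM. Every miR-106b library was below every control for Hoxa5; for Hoxb5 this held in 3 libraries, and miR-106b 3 was near the top of the control range. Hoxa6 (ENSMUSG00000043219, chr6:52206288-52208722) had 18.4, 19.9, 19 and 19.6 CPM and 8.26, 12.2, 16.9 and 4.23 CPM. Hoxb6 had 96.1, 104, 102 and 113 CPM and 44.6, 55.8, 81.6 and 32.4 CPM. Both had all miR-106b values below all control values, with miR-106b 3 the closest to control. Hoxc6 (ENSMUSG00000001661, chr15:102998257-103011881) had 81.2, 75.4, 83.8 and 90.1 CPM and 123, 46.2, 75.6 and 66.6 CPM. Hoxb7 (ENSMUSG00000038721, chr11:96286623-96290162) had 25.2, 23.1, 27.1 and 19.9 CPM and 25.4, 10.9, 16.6 and 16.9 CPM. Hoxb8 (ENSMUSG00000056648, chr11:96281905-96285315) had 67.6, 62.8, 71.8 and 68.1 CPM and 71.3, 33, 53.7 and 39.5 CPM. For these 3 genes miR-106b 1 lay within or above the control range, and miR-106b 2 was lowest.

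Hoxa5 fell (log2 fold change -0.94, SE 0.14, adjusted p = 0.000683 in edgeR, Benjamini-Hochberg), as did Hoxb6 (-1.07, SE 0.21, adjusted p = 0.00191). Hoxa6 fell (-0.99, SE 0.27, adjusted p = 0.0106 in edgeR; 0.0505 without polyA control 2), and Hoxa7 fell (-0.68, SE 0.17, adjusted p = 0.00690). Hoxb5 (-0.82, SE 0.28, adjusted p = 0.0378 in edgeR) lost its call without any 1 of polyA control 1 to 4 or polyA miR-106b 1, 2 or 4 (0.0750 to 0.149). Hoxb8 (-0.57, SE 0.19, adjusted p = 0.0292 in edgeR) lost it without any 1 of polyA control 1 to 4 or polyA miR-106b 2 or 4 (0.0595 to 0.132). Hoxb7 (-0.56, SE 0.21, adjusted p = 0.0467 in edgeR) lost it without polyA control 1, 2 or 3 or polyA miR-106b 2, 3 or 4 (0.0851 to 0.202). Hoxc5 fell (-1.04, SE 0.30, adjusted p = 0.0153 in edgeR; 0.0616 without polyA control 1 and 0.0514 without polyA control 3). Not called were Hoxc6 (-0.20, SE 0.23, adjusted p = 0.504 in edgeR; -0.44 and 0.0242 without polyA miR-106b 1), Hoxc8 (0.03, SE 0.24, adjusted p = 0.934) and Hoxd8 (-0.49, SE 0.27, adjusted p = 0.171; -0.78 and 0.0167 without polyA miR-106b 1, and 0.0479 with no filter). For Hoxc8 the sign itself turned without polyA miR-106b 1 (-0.29).

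The 9 and 10 groups pattern the lower chest and the lumbar region, where the 10 group blocks rib formation. Hoxb9 had 232, 251, 243 and 232 CPM in the control and 261, 89.8, 157 and 175 CPM in the miR-106b libraries of polyA RNA. Hoxc9 (ENSMUSG00000036139, chr15:102976439-102985099) had 31.8, 33.8, 34.5 and 36.1 CPM and 73.7, 21, 32.4 and 35.9 CPM. In both genes miR-106b 1 was the highest of the 8 libraries and miR-106b 2 the lowest. Hoxa10 (ENSMUSG00000000938, chr6:52231197-52240854) had 50.1, 57.1, 54.8 and 50.6 CPM and 69.4, 24.4, 36.1 and 35.2 CPM. Hoxc10 (ENSMUSG00000022484, chr15:102966796-102971893) had 27.7, 33.5, 29.4 and 34.7 CPM and 44.6, 15.3, 26.3 and 27.1 CPM. Again miR-106b 1 was the highest, and the other 3 miR-106b libraries lay below all controls.

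Hoxb9 was not called (log2 fold change -0.61, SE 0.24, adjusted p = 0.0612 in edgeR, Benjamini-Hochberg), but was without polyA miR-106b 1 (-0.82, 0.00167), with at least 10 counts in every library (0.0436) and with no filter on low counts (0.000234). Hoxa10 (-0.48, SE 0.24, adjusted p = 0.135 in edgeR) and Hoxc10 (-0.26, SE 0.24, adjusted p = 0.407) were not called with all 8 libraries, and both were without polyA miR-106b 1 (-0.79 and 0.000626; -0.51 and 0.0320); with no filter Hoxa10 was called too (0.0131). Hoxc9 (0.15, SE 0.30, adjusted p = 0.726 in edgeR) turned sign without polyA miR-106b 1 (-0.25). Hoxd9 was not called (-0.23, SE 0.36, adjusted p = 0.640 in edgeR); it was without polyA miR-106b 1 (-0.78, 0.0382), and without polyA miR-106b 2 its fold was 0.02. Hoxa9, a partner of Meis1 in blood progenitors, was the only gene of paralogs 9 to 13 called (-0.78, SE 0.17, adjusted p = 0.00277 in edgeR). At the tail end, Hoxa13 had 1.12, 1.57, 1.33 and 1.84 CPM in control and 6.74, 1.30, 1.32 and 4.58 CPM after miR-106b, with miR-106b 1 and 4 above all controls. It was not called (1.13, SE 0.49, adjusted p = 0.0844 in edgeR; 0.0339 without polyA miR-106b 2, 0.0295 without polyA miR-106b 3 and 0.0263 with no filter). Hoxc13, known for hair and nail, was not called either (-0.09, SE 0.23, adjusted p = 0.780 in edgeR; its fold was 0.04 without polyA control 3 and 0.06 without polyA miR-106b 3). A p that misses the threshold does not show that levels were equal, and with miR-106b libraries whose Hox sums ran from 547 to 1064 CPM the precision for single genes is low.

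**Figure D3:**
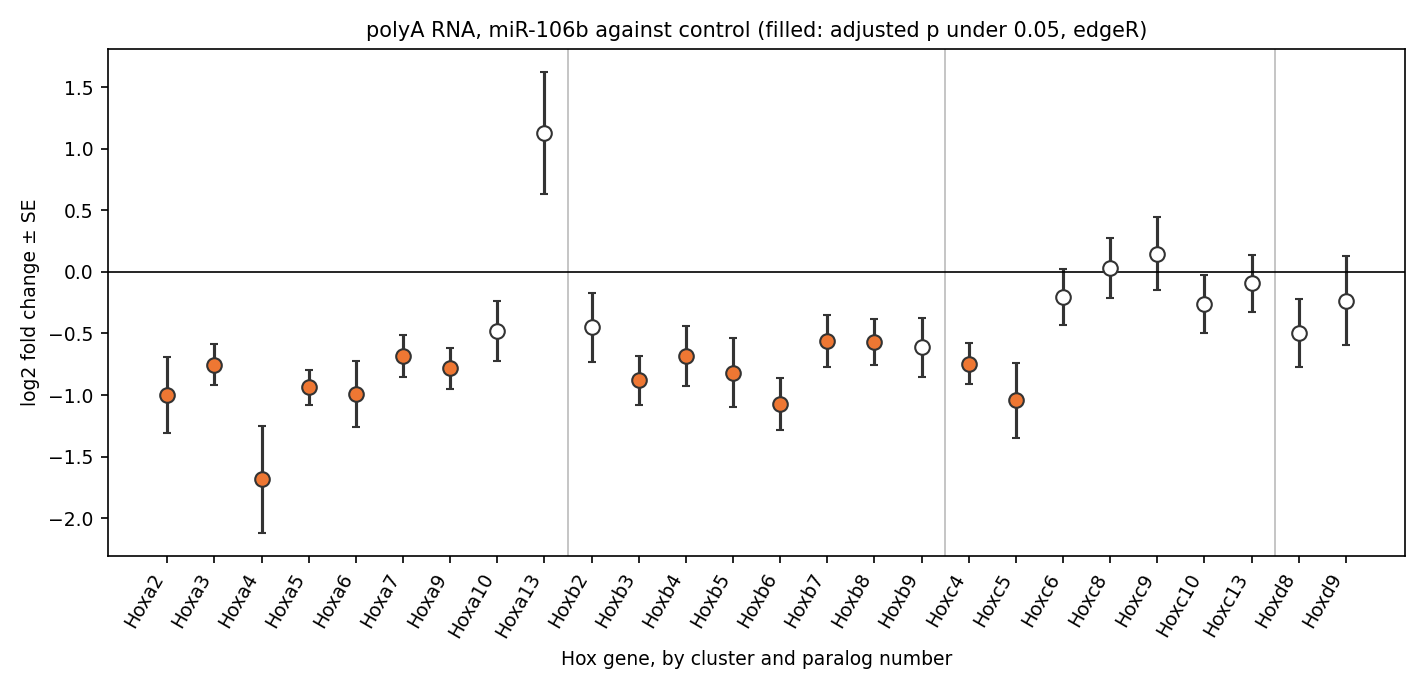
Log2 fold change of tested Hox genes of paralogs 2 to 13 in polyA RNA, miR-106b against control, in order of cluster and paralog number (points, edgeR estimate; bars, SE; grey lines part the clusters; filled, adjusted p under 0.05). Hoxa4 (-1.68) is the lowest and Hoxa13 (1.13) the highest.

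Cell type markers moved in the same libraries, and mostly the other way. Of 24 tested cardiac genes 23 were higher after miR-106b and 0 lower in edgeR (median log2 fold change 1.23), where 19.0% of all genes tested were higher and 21.5% lower, shares to be read beside each list in this paragraph. Juxtaglomerular and mural markers (11 genes, Des the most abundant per kb, Ren1 at 0) summed to 2365, 2200.5, 2170.1 and 2368 CPM in control and 3475, 4246, 3213 and 4389 CPM after miR-106b; 6 of 9 tested were higher and 1 lower. Fibroblast markers (9 genes, Col1a1 the most abundant) summed to 12589, 11897, 12025 and 13208 CPM and 27767, 17952, 14834 and 20628 CPM, with 8 of 9 higher and 1, Fbln2, lower. In all 3 lists the 4 miR-106b libraries lay above the 4 controls. Endothelial markers (9 genes, Cdh5 the most abundant) summed to 355, 274, 301 and 406 CPM and 584, 1079, 717 and 1002 CPM, 9 of 9 higher. Leukocyte markers (8 genes, Lyz2 the most abundant) summed to 166, 123, 134 and 175 CPM and 269.8, 413, 308 and 391 CPM, 7 of 8 higher. Red cell markers (6 genes, Hbb-bs the most abundant) summed to 37.2, 24.9, 32.5 and 38.1 CPM and 64.4, 112, 70.8 and 107 CPM, 4 of 5 tested higher. Kidney epithelium markers (10 genes, Cdh16 the most abundant) summed to 129, 138, 142 and 246 CPM and 169.8, 119.7, 176 and 212 CPM, 2 of 3 tested lower. Whether a change in the mix of cells or of RNA sources lies behind the Hox values was not tested.

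RNA bound to Argonaute 2 is rich in transcripts that a miRNA holds at the time of lysis. If Hox transcripts were direct targets of an added miRNA, their level in this fraction could rise even where the total falls. The comparison within the Ago2-IP libraries looks at that fraction alone.

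Hox RNA in the Ago2-IP fraction was low and variable in both transfections. The summed level was 34.8, 30.8, 76.2 and 131 CPM in the Ago2-IP control libraries and 85.1, 144, 76.7 and 35.5 CPM in the Ago2-IP miR-106b libraries, means of 68.3 ± 46.7 and 85.2 ± 44.6 CPM (SD, n = 4 each). The groups overlapped in part: the lowest values of the 8 were in control 2, control 1 and miR-106b 4, and the highest in miR-106b 2. In edgeR (Benjamini-Hochberg) 0 of 27 Hox genes were called, as were 0.0% of all genes tested. At an unadjusted p under 0.05 edgeR gave 0 Hox genes and 826 of all genes, and the DESeq2 Wald test called 2 genes, 0 of them Hox. At the same unadjusted p edgeR gave 6 Hox genes and 1142 of all genes without Ago2-IP control 4. Without Ago2-IP miR-106b 4 these numbers were 4 and 1164. After adjustment 0 Hox genes were called in both fits. The median log2 fold change of the 27 Hox genes was 0.31, from -0.88 (Hoxd9) to 1.86 (Hoxc13), with 7 below 0. A single library could set its sign: the median was -0.10 with 15 below 0 without Ago2-IP miR-106b 2, and 1.04 with 4 below 0 without Ago2-IP control 4. It was 0.19 (11 below 0) without Ago2-IP control 1, 0.05 (13 below 0) without Ago2-IP control 2 and 0.65 (4 below 0) without Ago2-IP miR-106b 4. For 0 Hox genes did the 2 groups of libraries separate, where 2.11% of all genes separated lower and 1.27% higher. The predicted gene Gm10800 split the Ago2-IP libraries in much the same way, with 1657, 248, 1793 and 12145 CPM in Ago2-IP control and 11292, 16064, 8295 and 1630.3 CPM after miR-106b. Ago2-IP miR-106b 2, control 4, miR-106b 1, miR-106b 3 and control 3 were, in this order, the 5 highest libraries for Gm10800 and for the Hox sum. In polyA RNA Gm10800 had 2299, 2132, 2173 and 2973 CPM in control and 639, 2377, 6689 and 5588 CPM after miR-106b, and there miR-106b 1 was lowest for it and highest for Hox within its group. What sets the Ago2-IP libraries apart was not tested. Single Hox genes rest on few counts here (100 to 557 Hox counts per library), and which changes this fraction could resolve was not tested.

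The ratio of Ago2-IP to polyA RNA shows how strongly a transcript is found with Argonaute compared with its abundance. Transcripts held by abundant miRNAs stand high on that scale, and transcripts with few sites stand low. RNA that enters an immunoprecipitate from other sources would also change the ratio. Hox genes are known as targets of the miRNAs that lie inside their own clusters, miR-10 and miR-196.

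Hox RNA was far lower in the Ago2-IP than in the polyA fraction of the control transfection. The Ago2-IP sum was 6.27% of the polyA sum in CPM. In edgeR (Benjamini-Hochberg) 26 of the 27 tested Hox genes were lower, where 37.9% of all genes tested were lower, 35.4% higher and 73.3% either. Hoxa2, Hoxa9, Hoxc4, Hoxc10, Hoxc13 and Hoxd9, among others, passed the filter on low counts only through polyA libraries. For such genes a lower Ago2-IP level is in part set by the filter. With at least 10 counts in every library 2 Hox genes could be tested, and 2 were lower. For 26 Hox genes all Ago2-IP libraries lay below all polyA libraries, against 33.7% of all genes. The Hox median log2 fold change was -3.44 against -0.06 over all genes; for the 25 genes with more than 3 counts in each group it was -3.44, from -5.60 to -1.43. Its size leaned on Ago2-IP control 4: without that library the median was -4.51 and the sum 4.35% of polyA, and 12 called Hox genes had folds lower by more than 1.5 times, among them Hoxc4 (-5.02 in place of -3.44). Scaling matters for such a ratio: by library size only, and with factors computed within each RNA kind, the median of all genes was -0.35, genes called higher were 37.6% of those called in place of 48.3%, and all 27 Hox genes were lower. The gene not called was Hoxa13 (-1.54, SE 0.75, adjusted p = 0.0673 in edgeR), with 0, 0, 2.06 and 0 CPM in the Ago2-IP control libraries. Its only counts there were in control 3, and without that library it was called (0.000303), as it was with no filter (0.0298).

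The lower Ago2-IP level ran through all 4 clusters. HoxA gave 10.9, 8.63, 20.6 and 26.1 CPM in the Ago2-IP control libraries, and HoxB 16.8, 16, 33.9 and 57.9 CPM. HoxC gave 3.73, 2.77, 17.1 and 38.4 CPM, and HoxD 3.42, 3.39, 4.71 and 8.72 CPM. Control 1 and 2 were lowest and control 4 highest in each cluster, and all values were below the lowest polyA value of the same cluster. These sums were 5.87, 5.61, 7.07 and 16.3% of polyA. The medians by cluster were -4.04 (HoxA, 9 of 10 called), -4.01 (HoxB, 8 of 8), -3.44 (HoxC, 7 of 7) and -2.71 (HoxD, 2 of 2). Of all genes tested 37.9% were lower and 35.4% higher. Without Ago2-IP control 4 the HoxC sum was 3.59% of polyA, and the medians were -4.76 (HoxB) and -5.02 (HoxC); without Ago2-IP control 3 the HoxA median was -4.68. For the 3 classes they were -3.36 (paralogs 1 to 4), -3.94 (paralogs 5 to 8) and -4.98 (paralogs 9 to 13), and the summed levels were 13.2, 6.07 and 3.61% of polyA. Without Ago2-IP control 4 paralogs 5 to 8 were at 3.73% (median -4.97) and paralogs 9 to 13 at 2.05% (median -5.62). Single paralog groups did not follow that order, with medians of -3.36 (3), -4.58 (6), -3.24 (8) and -5.46 (10), and a difference between the classes was not tested.

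The make-up of the Hox RNA differed too. Paralogs 1 to 4 made up 16.8, 15.8, 16.9 and 16.4% of Hox counts in the polyA control libraries and 58, 64.0, 28.6 and 25% in the Ago2-IP control libraries. In Ago2-IP control 1 the share was 58% (95% confidence interval 48.3 to 67.3%), and in Ago2-IP control 4 25% (95% confidence interval 21.4 to 28.8%). Paralogs 9 to 13 made up 38.7, 41, 39.2 and 38.7% and 13.4, 15.0, 22.4 and 27.1%. Thus the Ago2-IP libraries with the fewest Hox counts were the richest in 3′ Hox genes, and all 4 were richer than any polyA control library. In the polyA miR-106b libraries paralogs 1 to 4 gave 11.6, 16.7, 17.9 and 12.1%, and in the Ago2-IP miR-106b libraries 32.9, 21.3, 28.2 and 46.8%.

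Gene by gene, Hoxa3 had 7.15, 5.24, 7.65 and 9.42 CPM in the Ago2-IP control libraries. Hoxb3 had 3.11, 2.46, 1.47 and 4.71 CPM, and Hoxa4 had 0.933, 0.616, 0.589 and 1.18 CPM. Hoxa2 had 0.311, 0, 0 and 0 CPM. Hoxa3 was at a similar level in all 4, and Hoxa2 had a single count in control 1 and none elsewhere. Hoxb4, the highest Hox gene per kb in this group, had 5.29, 8.01, 7.65 and 5.42 CPM. Among the called Hox genes the fold was smallest for Hoxb2 (log2 fold change -1.43, SE 0.24, adjusted p = 9.75e-06 in edgeR) and Hoxb4 (-1.95, SE 0.17, adjusted p = 1.91e-10). For Hoxa3 it was -3.29, SE 0.14, adjusted p = 5.37e-16, for Hoxb3 -3.44, SE 0.20, adjusted p = 1.26e-13 and for Hoxa4 -3.46, SE 0.34, adjusted p = 3.23e-09 (edgeR). Hoxa2 had 172 counts in polyA control and 1 in Ago2-IP control, a ratio of 75.7 (95% interval of counting error 13.4 to 3008).

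Of the middle genes, Hoxa5 had 0, 1.54, 1.47 and 2.12 CPM in the Ago2-IP control libraries. Hoxb5 had 0.933, 0.616, 5.59 and 12.5 CPM, and Hoxa6 had 1.24, 0, 0.589 and 1.18 CPM. Hoxb6 had 2.49, 0.616, 3.24 and 9.89 CPM. Each stayed below its lowest polyA value, and Hoxb5 and Hoxb6 were highest in control 4. Hoxc6 had 0, 0.308, 4.42 and 14.8 CPM. Hoxb7 had 0, 0.308, 1.18 and 1.18 CPM, and Hoxb8 had 0.622, 0.616, 5.0 and 3.30 CPM. These 3 were near 0 in control 1 and 2. The folds in edgeR were -4.80, SE 0.25, adjusted p = 2.85e-14 (Hoxa5), -3.38, SE 0.54, adjusted p = 0.00121 (Hoxb5), -4.62, SE 0.30, adjusted p = 1.09e-12 (Hoxa6) and -4.58, SE 0.40, adjusted p = 3.85e-05 (Hoxb6). They were -3.94, SE 0.64, adjusted p = 0.00133 (Hoxc6), -5.06, SE 0.31, adjusted p = 3.59e-13 (Hoxb7) and -4.79, SE 0.28, adjusted p = 4.82e-09 (Hoxb8) in the same edgeR test. Without Ago2-IP control 4 the folds of Hoxb5, Hoxb6 and Hoxc6 were -4.51, -5.62 and -5.68.

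At the 5′ side, Hoxb9 had 1.55, 0.616, 7.36 and 16.5 CPM in the Ago2-IP control libraries. Hoxc9 had 1.24, 1.54, 2.94 and 7.54 CPM. Hoxa10 had 0.311, 0.616, 0.589 and 3.30 CPM, and Hoxc10 had 0.311, 0.308, 1.47 and 0.471 CPM. Control 4 was the highest for the first 3, and control 3 for Hoxc10. Hoxb9, the most abundant Hox gene of the polyA control libraries, had a fold of -5.10, SE 0.50, adjusted p = 8.74e-05 in edgeR, and Hoxc9 of -3.27, SE 0.31, adjusted p = 7.10e-07. Hoxc10 (-5.60, SE 0.27, adjusted p = 4.20e-15 in edgeR) and Hoxa10 (-5.32, SE 0.27, adjusted p = 1.35e-12) had the lowest folds among the Hox genes with more than 3 counts in each group. The folds of Hoxb9, Hoxc9 and Hoxa10 were -6.23, -4.16 and -6.69 without Ago2-IP control 4, and that of Hoxc10 was -6.35 without Ago2-IP control 3. Hoxc13 had 210 counts in polyA control and 3 in Ago2-IP control, a ratio of 30.8 (95% interval of counting error 10.4 to 151).

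Markers of other cell types stood higher in the Ago2-IP than in the polyA libraries of the control transfection, opposite to Hox. Cardiac markers were higher in 23 of 24 (median 2.27) and endothelial in 9 of 9 (2.18), where 35.4% of all genes tested were higher and 37.9% lower in edgeR. Leukocyte markers were higher in 7 of 8 and red cell markers in 5 of 5. Juxtaglomerular and mural markers were higher in 7 and lower in 2 of 9, and fibroblast markers higher in 8 and lower in 1 of 9. Of 3 tested kidney epithelium markers 2 were lower. Endothelial sums were 1565, 1656, 1573 and 1564 CPM in the Ago2-IP control and 1520.3, 1443, 1578 and 1630.0 CPM in the Ago2-IP miR-106b libraries, and leukocyte sums 659, 658, 644 and 637 CPM and 659, 586, 642 and 677 CPM. Fibroblast sums were 21398, 21706, 21511 and 20796 CPM and 19996, 20542, 20917 and 21155 CPM, and mural sums 5927, 6003, 5901 and 5591 CPM and 5420.1, 5241, 5567 and 6013 CPM. Kidney epithelium went with Hox instead: its sum was 4.35, 7.09, 4.71 and 15.5 CPM in the Ago2-IP control and 9.87, 22, 15.3 and 5.76 CPM in the Ago2-IP miR-106b libraries. Red cell sums were 160.1, 163, 151 and 148 CPM and 133, 145, 152 and 172 CPM. The cause of these differences was not tested, and since the fractions came from separate cultures a difference between cultures is part of every ratio.

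After miR-106b transfection the same comparison of fractions can show whether the distance between polyA and Argonaute-bound Hox RNA is kept. A miRNA that recruits a transcript to Argonaute would narrow it. A loss of polyA RNA alone would narrow it too.

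Hox RNA was again lower in the Ago2-IP fraction, at 10.9% of the polyA sum in CPM. In edgeR (Benjamini-Hochberg) 24 of 27 Hox genes were lower, where 19.8% of all genes tested were lower, 18.6% higher and 38.5% either. Here too some Hox genes, Hoxa2 and Hoxc10 among them, passed the filter only through polyA libraries. Their lower Ago2-IP level was thus in part set by the filter. With at least 10 counts in every library 3 Hox genes could be tested, and 3 were lower. For 25 Hox genes all Ago2-IP libraries lay below all polyA libraries, against 19.0% of all genes (18.2% for the opposite order). The Hox median was -3.18 (-3.16 over the 26 genes with more than 3 counts in each group), with 8 of 10 called in HoxA, 7 of 8 in HoxB, 7 of 7 in HoxC and 2 of 2 in HoxD. Genes called higher were 48.4% of those called, and 34.1% with scaling by library size only. Among those not called were Hoxa4 (-1.99, SE 0.79, adjusted p = 0.0584 in edgeR) and Hoxb2 (-0.57, SE 0.37, adjusted p = 0.236). Hoxa4 was called without polyA miR-106b 1 (0.0485), polyA miR-106b 4 (0.0257) or Ago2-IP miR-106b 2 (-3.01, 0.0272). The same gene was called with no filter (0.00785), in the fit of all 16 libraries (0.0189), and with scaling by library size only (0.0469) or within RNA kind (0.0440). Calls of Hoxa13 were lost without polyA miR-106b 1 (0.0619), Ago2-IP miR-106b 3 (0.0544) or Ago2-IP miR-106b 4 (0.0509), and of Hoxc5 without Ago2-IP miR-106b 1 (0.0550) or 3 (0.0659).

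For the 3′ genes, Hoxa3 had 4.52, 6.50, 5.92 and 3.84 CPM in the Ago2-IP miR-106b libraries. Hoxb3 had 7.40, 7.43, 4.88 and 0.960 CPM, and Hoxa4 had 0.411, 1.86, 0.697 and 0 CPM. All Hoxa3 and Hoxb3 values were below every polyA value, while Hoxa4 in miR-106b 2 exceeded its lowest polyA value. Hoxa3 was lower by edgeR (-3.14, SE 0.24, adjusted p = 2.02e-06), and so was Hoxb3 (-1.90, SE 0.43, adjusted p = 0.00502). Hoxa2 had 0, 0.619, 0 and 0.320 CPM in the Ago2-IP miR-106b libraries. In counts Hoxa2 had 44 in the polyA miR-106b and 3 in the Ago2-IP miR-106b libraries, a ratio of 11.3 (95% interval of counting error 3.63 to 57.1). Of the middle genes, Hoxa5 had 2.06, 2.17, 3.83 and 0.320 CPM. Hoxb5 had 6.17, 10.5, 4.18 and 1.92 CPM, and Hoxb6 had 6.58, 10.8, 2.09 and 2.56 CPM. Hoxa6 had 1.23, 1.24, 1.39 and 0 CPM. For these 4 genes every Ago2-IP value was below every polyA value, and edgeR gave -3.33, SE 0.36, adjusted p = 1.59e-05 (Hoxa5), -2.56, SE 0.52, adjusted p = 0.00533 (Hoxb5), -3.27, SE 0.49, adjusted p = 0.00146 (Hoxb6; -3.89 without Ago2-IP miR-106b 2) and -3.42, SE 0.55, adjusted p = 0.000447 (Hoxa6).

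Hoxc6 had 6.99, 14.2, 7.32 and 1.28 CPM in the Ago2-IP miR-106b libraries. Hoxb7 had 2.47, 3.72, 1.39 and 0 CPM, and Hoxb8 had 3.70, 8.36, 3.83 and 0.640 CPM. MiR-106b 2 was highest and miR-106b 4 lowest for each. Hoxb9 had 6.17, 16.1, 4.88 and 3.84 CPM. Hoxc9 had 3.70, 11.5, 5.23 and 1.60 CPM. Hoxa10 had 1.65, 3.72, 1.74 and 0 CPM, and Hoxc10 had 0, 1.55, 2.44 and 0.320 CPM. For all of these genes the 2 fractions did not overlap. The edgeR results were -3.37, SE 0.56, adjusted p = 0.00352 (Hoxc6), -3.19, SE 0.51, adjusted p = 0.000680 (Hoxb7), -3.56, SE 0.49, adjusted p = 0.000854 (Hoxb8) and -4.43, SE 0.53, adjusted p = 0.000999 (Hoxb9). They were -2.86, SE 0.60, adjusted p = 0.00853 (Hoxc9) and -4.50, SE 0.59, adjusted p = 0.000710 (Hoxa10), and Hoxc10 had the largest difference among the tested Hox genes here (-4.63, SE 0.55, adjusted p = 0.000192 in edgeR; -5.32 without Ago2-IP miR-106b 3). Without Ago2-IP miR-106b 2 the folds were -3.83 (Hoxb7), -4.21 (Hoxb8), -5.11 (Hoxb9), -3.55 (Hoxc9) and -5.22 (Hoxa10), and without Ago2-IP miR-106b 1 or 2 Hoxa10 was the lowest.

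A change of the Ago2:polyA ratio with miR-106b compares the 2 distances above, so it shares all 16 libraries with the earlier comparisons and is no separate evidence. A ratio rises when the Ago2-bound level rises, when the polyA level falls, or both. For direct targets of the added miRNA a rise would be looked for.

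Hoxb3 alone among the 27 tested Hox genes had a change of the ratio that passed the test (log2 change 1.50, SE 0.54, adjusted p = 0.0441 in edgeR, Benjamini-Hochberg), where 7.61% of all genes tested were higher, 19.7% lower and 27.3% either. Its polyA level fell, as given above, while its Ago2-IP values in the 2 transfections overlapped. Of its exon bases 52.9% are shared with an antisense gene, so the strand of these counts is uncertain. The call was lost without any 1 of polyA control 1 to 4, polyA miR-106b 2 or 4, Ago2-IP control 1 to 3 or Ago2-IP miR-106b 1 to 3 (0.0551 to 0.136). Without polyA miR-106b 1 the count was 2 (Hoxb7 added, 0.0401), and without polyA miR-106b 3 it was 3 (Hoxa4 0.0473, Hoxb2 0.0162). Without Ago2-IP control 4 it was 3 (Hoxa5 0.0458, Hoxb6 0.0408), and without Ago2-IP miR-106b 4 it was 4 (Hoxa5 0.0136, Hoxb7 0.0142, Hoxc13 0.0478). Hoxa5 and Hoxb7 were also called with no filter (0.00771 and 0.00307) and in the DESeq2 Wald test (0.0141 and 0.01801), and Hoxa5 with scaling by library size only (0.0495). The median change of the 27 Hox genes was 0.87 against -0.07 over all genes, with 3 below 0. It was 0.37 with 8 below 0 without Ago2-IP miR-106b 2, 1.67 with 2 below 0 without Ago2-IP control 4, and 0.70 with 5 below 0 without Ago2-IP control 2. Genes called higher were 27.9% of those called, 46.5% with scaling by library size only, 45.0% with scaling within RNA kind, 44.3% with no filter on low counts and 36.6% without polyA miR-106b 2, so the balance of this comparison depends on scaling, filter and library.

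Genes that lie next to a Hox cluster share its chromosome region but not its code, and long noncoding RNAs inside the clusters often follow the Hox genes beside them. Of the 47 other genes inside the clusters 8 were tested; 4 were lower and 0 higher after miR-106b in polyA RNA (edgeR, median log2 fold change -1.03 against -0.68 for Hox), where 21.5% of all genes tested were lower. Gm53, the most abundant of them per kb, had 84.9, 82.4, 79.4 and 86.2 CPM in the control and 42.4, 39.97, 67.7 and 29.9 CPM in the miR-106b libraries of polyA RNA. It was lower in all 4 miR-106b libraries and fell (-1.01, SE 0.19, adjusted p = 0.00142 in edgeR). All 8 were lower in the Ago2-IP than in the polyA fraction of the control transfection (median -3.87), where 37.9% of all genes tested were lower, with Gm53 at -5.75; Gm11536, Hoxb5os and Hoxd3os1 had 1 to 3 counts in an Ago2-IP group, so their folds are no bounds. Of the 3 nearest protein-coding neighbours on each side of each cluster 19 of 24 were tested. In polyA RNA 4 were higher and 6 lower (edgeR, median -0.22), where 19.0% of all genes tested were higher and 21.5% lower. In the fraction comparison of the control transfection 6 were higher and 9 lower (median -0.21), where all genes gave 35.4 and 37.9%. The largest changes among them in polyA RNA were Atp5g1 (1.01, SE 0.16, adjusted p = 0.000705 in edgeR) and Hnrnpa1 (-0.96, SE 0.17, adjusted p = 0.000963).

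Hox proteins gain specificity from partners of the Pbx, Meis and Pknox families, whose loss can mimic loss of Hox function. Of 10 tested cofactor genes 2 were higher and 0 lower after miR-106b in polyA RNA (edgeR, median -0.14), where 19.0% of all genes tested were higher and 21.5% lower. In Ago2-IP against polyA RNA 7 were lower and 2 higher in the control transfection (median -0.84) and 6 lower and 1 higher in the miR-106b transfection (median -0.70). All genes tested gave 37.9% lower and 35.4% higher in the control and 19.8% lower and 18.6% higher in the miR-106b transfection. Meis1 had 17.6, 12.2, 13.3 and 21.3 CPM in the control and 33, 27.3, 22.6 and 28.5 CPM in the miR-106b libraries of polyA RNA. Pknox2 had 16, 17.6, 18.6 and 23.6 CPM and 50.7, 32.2, 24 and 41.9 CPM. All 4 miR-106b libraries were above all controls for both genes, and both rose (0.68, SE 0.19, adjusted p = 0.0127 and 0.85, SE 0.21, adjusted p = 0.00623 in edgeR). Of 15 ParaHox and Hox-linked homeobox genes only Dlx6 was tested, and it was not called in any comparison.

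Retinoic acid switches on 3′ Hox genes through its nuclear receptors. Of 15 tested pathway genes 7 were higher and 0 lower after miR-106b in polyA RNA (edgeR, median 0.38), where 19.0% of all genes tested were higher. Among them Dhrs3 went from 28.5 ± 3.47 to 94.3 ± 31.8 CPM (SD, n = 4 each; 1.60, SE 0.21, adjusted p = 0.000683 in edgeR), and Rarb rose too (1.35, SE 0.33, adjusted p = 0.00605). Polycomb proteins keep Hox genes silent outside their domain, and Trithorax and MLL proteins keep them on inside it. Polycomb genes were lower in 8 and higher in 2 of 19 tested (median -0.28), and Trithorax and MLL genes lower in 9 and higher in 0 of 16 (median -0.36), where 21.5% of all genes tested were lower and 19.0% higher. Ezh2, the Polycomb methyltransferase, went from 17.8 ± 1.13 to 8.40 ± 3.02 CPM (-1.17, SE 0.21, adjusted p = 0.00118 in edgeR), and Kmt2a, its MLL counterpart, from 305 ± 5.25 to 226 ± 44.7 CPM (-0.56, SE 0.14, adjusted p = 0.00599; SD, n = 4 each). In the comparison of fractions in the control transfection Polycomb genes were lower in 13 and higher in 2, and Trithorax genes lower in 12 and higher in 2, where 37.9% of all genes tested were lower and 35.4% higher in edgeR. Retinoic acid pathway genes were higher in 10 and lower in 2 of 15 in the same comparison.

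Field factors name the organ that a positional code belongs to. Of 12 tested kidney field factors, Pax2, Pax8 and Foxd1 among them, 2 were higher and 0 lower after miR-106b in polyA RNA (edgeR, median 0.08), where 19.0% of all genes tested were higher and 21.5% lower. Across fractions 9 of the 12 were lower and 2 higher in Ago2-IP than in polyA RNA of the control transfection (edgeR, median -2.65), and 9 lower and 1 higher after miR-106b (median -2.21), where 37.9 and 19.8% of all genes tested were lower and 35.4 and 18.6% higher. Pax8 had 143, 161, 153 and 172 CPM in polyA RNA of the control and 283, 83.1, 137 and 189.6 CPM of the miR-106b transfection, and 1.24, 0.308, 5.30 and 12.2 CPM in Ago2-IP control and 4.94, 16.4, 6.97 and 1.92 CPM in Ago2-IP miR-106b libraries. Foxd1 had 49.5, 43.8, 43.9 and 47.4, then 122, 19.99, 30.6 and 74, then 0.311, 0, 4.12 and 6.60 and then 4.11, 8.98, 2.79 and 1.28 CPM in the same order of groups. Both were highest in polyA miR-106b 1, as were Hoxb9 and Hoxc9, and neither passed the test in polyA RNA (0.01, SE 0.30, adjusted p = 0.978 and 0.30, SE 0.49, adjusted p = 0.664 in edgeR). Of the heart field factors 9 of 10 tested were higher after miR-106b in polyA RNA (median 1.13) and 10 of 10 higher in Ago2-IP than in polyA RNA of the control transfection (edgeR, median 2.21), where all genes tested gave 19.0 and 35.4% higher. Tbx20 had 23.7, 16.8, 20.2 and 26.1 CPM in polyA RNA of the control and 37.6, 66.2, 45.8 and 58.5 CPM of the miR-106b transfection, and 101, 99.2, 99.8 and 83.9 CPM in Ago2-IP control and 102, 91.7, 102 and 106 CPM in Ago2-IP miR-106b libraries. Within the polyA miR-106b libraries 1 to 4 the order by Tbx20 was the reverse of the order by Hox sum (1064, 547, 859 and 649.7 CPM).

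A miRNA pairs through its seed, bases 2 to 8, with matches mostly in the 3′UTR of the mRNA. The mature sequence of miR-106b-5p (RefSeq, GRCm38.p6, chr5:138165787-138165807, minus strand, seed in capitals) is shown to give the seed that was looked for.
miR-106b-5p: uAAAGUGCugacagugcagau
Matches GCACTTT (to bases 2 to 8) and CACTTTA (to bases 2 to 7 with a following A) were counted in the longest annotated 3′UTR of each gene (GENCODE M21, GRCm38). Any match was found in 4 of 27 tested Hox genes (14.8%), where 22.2% of 13222 tested genes with a 3′UTR had one; Hox 3′UTRs had a median length of 960 bases against 1222. Of the Hox genes called lower in polyA RNA 3 of 16 had a match, and of those not called 1 of 11. Matches of 3 tested genes are shown to give their surroundings, match in capitals, on the transcribed strand at chr6:52215512-52215518 and chr6:52258122-52258128 (minus) and chr11:96320449-96320455 (plus).
Hoxa7: attcaatcaccCACTTTAgctcccagggaa
Hoxa13: tacgaagaattCACTTTAtgccccttctcc
Hoxb4: taccctaccctCACTTTAtctataaggaat
A match describes the sequence and is neither a site in use nor a cause.

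The Hox clusters carry miRNA genes of their own, and this search was added after the values were seen. MiR-196a-5p (RefSeq, GRCm38.p6, chr11:96265187-96265208, plus strand) lies beside Hoxb9, and miR-196b-5p (chr6:52230129-52230150, minus strand) lies within Hoxa9. MiR-10a-5p (chr11:96317186-96317208, plus strand) lies by the 4 group. Seeds are in capitals, and the sequences are shown because the first 2 share a seed and differ by a single base.
miR-196a-5p: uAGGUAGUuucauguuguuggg
miR-196b-5p: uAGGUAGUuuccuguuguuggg
miR-10a-5p: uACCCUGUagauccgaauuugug
Matches to the miR-196 seed (ACTACCT or CTACCTA) were found in 8 of 27 tested Hox genes (29.6%), against 12% of tested genes with a 3′UTR, at 0.516 against 0.0826 per kb of 3′UTR. Of the Hox genes called lower in polyA RNA 7 of 16 (43.8%) held one, and of those not called 1 of 11. Matches to the miR-10 seed were found in 4 of 27 (14.8%), against 20%; they were in 4 of the 16 Hox genes called lower (25%) and 0 of the 11 not called. Hoxa7 has 4 matches to the seed with a following A (ACTACCTA), and Hoxb8 has the most paired bases among the Hox 3′UTRs, 21 of 22 plus 1 G:U pair that falls in the seed. The lines show an ACTACCTA match of Hoxa5, Hoxa7, Hoxb6, Hoxb7 and Hoxc8 (in capitals, at chr6:52202118-52202125 and chr6:52215400-52215407, minus, chr11:96301387-96301394, chr11:96289798-96289805 and chr15:102993747-102993754, plus; GRCm38) and the Hoxb8 site (chr11:96284888-96284909, plus, seed part in capitals).
Hoxa5: tttttattcaaACTACCTAtattccttgtg
Hoxa7: acagccaaaatACTACCTAgcacaggcctc
Hoxb6: aaggagcacatACTACCTAgaaggaagaag
Hoxb7: taaaaaaatatACTACCTAtgggaaagtgt
Hoxc8: atctttaacatACTACCTAaagggaacctg
Hoxb8: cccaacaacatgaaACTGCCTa
The host loci Mir10a, Mir10b and Mir196b had 0 counts in these libraries, Mir196a-1 27, Mir196a-2 2 and Mir615 11 in total, but libraries of long RNA do not measure mature miRNAs.

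Hox proteins bind with Pbx at the motif TGATNNAT (N is any base), and Hox genes regulate themselves and their neighbours through it. In the 300 bases of RefSeq promoter sequence (GRCm38.p6), read on both strands, it was found in 4 of 24 Hox promoters (16.7%), against 8.85% of all 32851 promoters. Among promoters of tested genes it was 2 of 14 (14.3%) for Hox against 4.11%. The 24 promoters belong to only 22 of the 39 Hox genes, and the 14 to 13 of the 27 tested. Hoxb9, Hoxb6 and Hoxc6 had no promoter in this set. This search too was added after the values were seen. The 4 are shown with the motif in capitals, read on the strand of the gene (minus for Hoxa2, plus for the others), at chr6:52164935-52164942, chr11:96281894-96281901, chr11:96365596-96365603 and chr2:74682250-74682257, because 2 of them precede genes with values above (Hoxa2 and Hoxb8).
Hoxa2: gacttttttggATCAATCAaacagacagtg
Hoxb8: ataataaggaaATTGATCAttaaagcttta
Hoxb1: tgattggggggTGATGGATgggcgctggga
Hoxd11: ttaccaccagaATCAATCAagatgaattgc
In Hoxa2, Hoxb8 and Hoxd11 the motif lies on the opposite strand and so appears reversed. The 24 Hox promoters held a median of 14.5 CpG, against 7 over all promoters and 20 over those of tested genes.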

How the data were processed

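RNA was sequenced from 16 libraries labeled as cultured mouse juxtaglomerular cells (Ren1, which defines them, had 0 counts in all 16), 4 separate cultures for each of 4 groups: polyA RNA (oligo-dT selection) and Ago2-IP RNA (immunoprecipitation of Argonaute 2 from other cultures), each after transfection of a miR-106b or a control precursor. The deposited values are read counts per gene, unscaled, which the authors made with TopHat2 (2.0.10 per the labels, a later version per the methods of the study) on GRCm38 and HTSeq; the libraries are single-end without strand, and the counting mode is not given in the sources used here. Depth was 2579086 to 9459585 counts per library (mean 4416774.1), so that 3 counts are 0.317 to 1.16 CPM.

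All protein-coding genes with a symbol of the form Hox, cluster letter and number were taken (39 of 46078 genes). Genes with at least 1 CPM in at least 3 of the 4 libraries of any group were tested (14897 genes, 27 of them Hox). Tests used the edgeR 4.0.16 quasi-likelihood F test (robust, two-sided, TMM over the libraries of the comparison) in R 4.3.3 with limma 3.58.1, and Benjamini-Hochberg adjustment over all genes tested, called at an adjusted p under 0.05; SE is the log2 fold change over the root of F. The 5 comparisons were miR-106b against control in polyA RNA and in Ago2-IP RNA, Ago2-IP against polyA RNA in each transfection, and the change of that ratio. Printed CPM use TMM over all 16 libraries; levels per kb use GENCODE M21 exon lengths. The fit was tested on simulated data (known changes in 200 genes) before use. Python 3.11.15 with numpy 2.4.6, pandas 2.3.3, scipy 1.17.1 and matplotlib 3.10.9 made tables and figures.

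Alternatives tried were DESeq2 1.42.0 size factors and Wald test, scaling by library size, TMM within RNA kind, no filter, at least 10 counts in every library, the replicate number as a block, all 16 libraries in 1 fit, and each library left out in turn; exon length not shared with other genes was added after the values were seen. Values in every library are given for the 12 Hox genes with the highest level per kb (largest of the 4 group means) and for the Hox gene with the largest change in each comparison that called any, 15 genes in all. The members and lists were chosen with earlier results of these data known. Matches to miRNA seeds were counted in the longest 3′UTR of each gene (GENCODE M21), and motifs in 300 bases of RefSeq promoter (GRCm38.p6). Calls in the lists are given as counts without a set test.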

Additional observations from a re-analysis of the deposited data

Results flagged for a closer look

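Within groups of 4 libraries 80 sets of values were examined for a library far from the other 3, and 6 were found, where chance alone gives about 1 in 20. The HoxD sum was 12.7 CPM in Ago2-IP miR-106b 2, against 3.48 to 4.52 CPM in the other 3 libraries of the group. Hoxa6 was 0 CPM in Ago2-IP miR-106b 4, against 1.23 to 1.39 CPM (0 counts against 3 or 4). Hoxc10 was 1.47 CPM in Ago2-IP control 3, against 0.308 to 0.471 CPM (5 counts against 1 or 2), and Hoxa10 was 3.30 CPM in Ago2-IP control 4, against 0.311 to 0.616 CPM (14 counts against 1 or 2). Hoxa2 was 4.45 CPM in polyA control 4, against 5.54 to 5.72 CPM, and 0.311 CPM in Ago2-IP control 1, against 0 in the other 3. The last is a single count, which stands apart from 3 values of 0 by construction and shows no difference. Hoxb3 alone among the tested Hox genes had a called change of the Ago2:polyA ratio with miR-106b (log2 change 1.50, adjusted p = 0.0441 in edgeR).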

How the results depend on the processing

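In polyA RNA the number of Hox genes called (16 with all 8 libraries) was 7 with all 16 libraries in 1 fit and 9 to 20 with a library left out. In Ago2-IP against polyA RNA, control transfection (26 called), a demand for at least 10 counts in every library left 2 Hox genes to test, both called; in the miR-106b transfection (24 called) it left 3, all called. For the change of the ratio (1 called) the number was 2 with scaling by library size only, 3 with no filter, 0 with at least 10 counts in every library, 0 with the replicate block, 3 by the DESeq2 Wald test and 0 to 4 with a library left out.

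The sign of the polyA log2 fold change turned for 4 genes that were not called. Hoxc8 (0.03) was -0.062 with the replicate block and -0.29 (without polyA miR-106b 1) to 0.19 with a library left out. Hoxc9 (0.15) was -0.25 (without polyA miR-106b 1) to 0.37. Hoxc13 (-0.09) was 0.032 with all 16 libraries in 1 fit, and -0.21 to 0.063 with a library left out (0.041 without polyA control 3, 0.063 without polyA miR-106b 3). Hoxd9 (-0.23) was -0.78 to 0.025 (without polyA miR-106b 2).

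Correlations between libraries of the same replicate number were -0.38 to 0.22 and did not show pairing. Libraries of different numbers were not compared, so these values cannot settle whether replicate numbers pair cultures. With the replicate block Hoxb9 was called in polyA RNA (adjusted p 0.0320 in edgeR); in Ago2-IP against polyA RNA of the miR-106b transfection Hoxc9 was not (-2.78, 0.0640) and Hoxa4 was (0.0359), and Hoxb3 was not for the ratio (0.0546). Few Hox counts limit the Ago2-IP libraries (100 to 557 each, against 1844 to 4893 in the polyA miR-106b libraries at a similar depth). The cause of the spread among libraries was not tested.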

Other observations

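The libraries hold 48 h after transfection only, and 4 cultures per group. PolyA and Ago2-IP RNA came from different cultures, so a ratio compares cultures as well as fractions. Between the 4 groups, though not within the polyA control group, Hox RNA was higher where heart markers were lower. Ren1 had 0 counts in all libraries, so whether the cells are of the labeled type is open, and which cells or RNA sources contributed to each library cannot be read from counts of pooled RNA. Without strand, counts of Hox genes that overlap antisense genes are uncertain. Protein levels, mature miRNAs and binding sites were not measured, and sequence matches were not tested for function.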
